A study of Mus musculus with 2 samples.

Results

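Silent-promoter peaks were regions of open chromatin at the starts of genes from which almost no RNA was captured in fetal mouse testis. Of 106565 peaks on chromosomes 1 to 19, 1525 (1.43%) met 3 conditions. The midpoint of the peak lay within 1 kb of the start of a gene that had 20 or fewer UMIs (unique molecular identifiers, each counting 1 captured RNA molecule) over all 9833 barcodes, and no gene of more than 20 UMIs started within 5 kb. The nearest starts belonged to 1466 genes, which together had 9819 of the 122049390 UMIs in the library. At 242 peaks the nearest gene had no UMI at all, at 573 it had 1 to 5 and at 710 it had 6 to 20. The regions were chosen by the measured RNA count and the presence of a peak, so values that rest on them are given below as a description only. Cell classes were built from RNA alone, and the nearly silent genes were not left out of it. The accessibility of each region was not used to build them.

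The nuclei came from whole testes of E14.5 embryos that carried *Nr5a1-cre* (*B6D2-Tg(Nr5a1-cre)2Klp*), a transgene active in the steroidogenic and supporting lineages of the gonad, and the *Rosa-tdTomato* Cre reporter. There was a single genotype, no treatment and no control group. RNA and open chromatin were read from the same nuclei (10x multiome), with 1 library for each assay, and no source used here says whether testes of several embryos were combined. The data therefore have no biological replicate: every interval printed is a 95% interval for counting error, comparisons are between classes of nuclei of 1 preparation, and no test was made.

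A promoter is the stretch of DNA around the start of a gene where RNA polymerase is loaded. An open promoter is a place that the Tn5 transposase can reach and cut, and openness is needed for transcription without being the same thing as transcription. Many mammalian promoters, those of housekeeping genes and of the transcription factors that build the body plan among them, are rich in the dinucleotide CpG, whereas promoters of olfactory receptor, keratin and many immune genes are mostly poor in it. Promoters of developmental regulators are known in many tissues to stay accessible while Polycomb proteins hold the gene silent.

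After quality filters 7197 nuclei were kept, with a median of 7949 UMIs and 4477 fragments each, and 14313293 fragments had a cut inside a peak. The nuclei fell into 10 classes of at least 50 nuclei. Named by marker genes in their RNA, these were 2585 progenitor-like interstitial, 915 Sertoli-like, 884 contractile-like, 883 germ-like, 788 Leydig-like, 434 surface epithelium-like, 369 mesonephric mesenchyme-like, 95 endothelial-like and 67 immune-like nuclei, and 88 nuclei that stayed unnamed. The germ-like name rested on markers such as *Dazl*, which stood at 870 UMIs per 1000000 (CPM) in germ-like nuclei against 12 in progenitor-like and 102 in Sertoli-like nuclei. Germ-like nuclei were the deepest in RNA (median 14833 UMIs) and had the lowest share of their fragments at peaks, 31.1% against 40.7% in progenitor-like nuclei. For this reason each peak was scored as fragments per 1000000 fragments at peaks of the class (FPM), and the other scaling is given where it matters.

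The DNA of 11 of these regions is shown, the most often open region of each large family and the region with the highest ratio in each of the classes with most called regions, wherever the peak had 200 bases outside exons. Each sequence is 200 bases from inside a peak, taken from the GRCm38 (mm10) assembly, 5′ to 3′ on the strand of the nearest silent gene, outside annotated exons and in lower case with every CpG in capitals. *Gm28616* (chr5:132543408-132543607, + strand, beside a start of the expressed gene *Auts2*), *Ccno* (chr13:112987602-112987801, + strand), *Nkx6-1* (chr5:101665321-101665520, − strand), *Hrh3* (chr2:180104489-180104688, − strand), *Egr2* (chr10:67537462-67537661, + strand), *Il11* (chr7:4777184-4777383, − strand) and *Artn* (chr4:117928492-117928691, − strand) had the most often open region of their gene family. *Gm13661* (chr2:77839654-77839853, + strand), *Gm45054* (chr7:64040222-64040421, − strand), *Gm44725* (chr7:73089118-73089317, + strand) and *Macrod2os2* (chr2:141235046-141235245, − strand) had the highest ratio in germ-like, Sertoli-like, progenitor-like and surface epithelium-like nuclei. The first 7 windows held 22, 21, 13, 29, 21, 13 and 2 CpGs in that order and the *Gm13661* window held 10. The windows of *Gm45054*, *Gm44725* and *Macrod2os2* held 2, 2 and 0. Several windows lie well away from the start used by the rule. Their centres stood at -927 bases (upstream) for *Gm28616*, -862 for *Gm13661*, 857 (downstream) for *Il11*, 905 for *Artn* and 504 for *Gm45054*. They stood at -100 for *Ccno*, -425 for *Nkx6-1*, -438 for *Hrh3*, -307 for *Egr2*, -205 for *Gm44725* and 280 for *Macrod2os2*, whose region lies inside an expressed gene.
Gm28616: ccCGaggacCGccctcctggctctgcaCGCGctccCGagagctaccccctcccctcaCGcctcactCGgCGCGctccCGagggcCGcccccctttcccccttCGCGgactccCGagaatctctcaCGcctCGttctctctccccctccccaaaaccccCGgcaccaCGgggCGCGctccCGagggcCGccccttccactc
Ccno: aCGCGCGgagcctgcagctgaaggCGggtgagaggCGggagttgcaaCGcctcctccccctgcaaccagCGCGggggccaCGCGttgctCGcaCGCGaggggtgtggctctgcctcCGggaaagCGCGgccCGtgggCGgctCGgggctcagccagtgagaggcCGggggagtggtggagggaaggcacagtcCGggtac
Nkx6-1: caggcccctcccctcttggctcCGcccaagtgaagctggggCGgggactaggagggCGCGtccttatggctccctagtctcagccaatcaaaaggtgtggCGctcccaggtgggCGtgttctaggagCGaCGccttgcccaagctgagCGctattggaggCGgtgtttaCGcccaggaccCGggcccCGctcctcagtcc
Hrh3: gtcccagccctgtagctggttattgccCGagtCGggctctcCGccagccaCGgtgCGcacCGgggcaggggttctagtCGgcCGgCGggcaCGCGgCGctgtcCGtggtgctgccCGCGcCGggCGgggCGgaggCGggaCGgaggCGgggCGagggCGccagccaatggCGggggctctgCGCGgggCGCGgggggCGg
Egr2: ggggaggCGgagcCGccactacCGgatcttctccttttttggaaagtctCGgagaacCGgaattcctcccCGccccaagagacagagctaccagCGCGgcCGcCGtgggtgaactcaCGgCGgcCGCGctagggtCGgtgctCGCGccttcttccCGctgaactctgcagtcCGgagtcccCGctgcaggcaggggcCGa
Il11: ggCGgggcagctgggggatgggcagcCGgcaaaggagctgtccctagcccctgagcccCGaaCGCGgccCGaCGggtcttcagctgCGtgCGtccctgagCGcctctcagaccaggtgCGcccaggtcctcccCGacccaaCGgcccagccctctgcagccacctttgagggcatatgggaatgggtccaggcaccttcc
Artn: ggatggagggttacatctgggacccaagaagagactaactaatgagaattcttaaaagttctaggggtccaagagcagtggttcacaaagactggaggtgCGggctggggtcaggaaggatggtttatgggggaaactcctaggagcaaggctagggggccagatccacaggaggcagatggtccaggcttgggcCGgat
Gm13661: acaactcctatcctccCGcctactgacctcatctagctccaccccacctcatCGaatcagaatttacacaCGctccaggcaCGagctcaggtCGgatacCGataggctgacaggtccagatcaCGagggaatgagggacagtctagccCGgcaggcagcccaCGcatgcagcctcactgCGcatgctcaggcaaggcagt
Gm45054: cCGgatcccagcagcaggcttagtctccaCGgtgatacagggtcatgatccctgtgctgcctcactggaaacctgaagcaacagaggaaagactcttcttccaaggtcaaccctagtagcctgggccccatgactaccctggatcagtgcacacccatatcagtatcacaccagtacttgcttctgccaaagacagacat
Gm44725: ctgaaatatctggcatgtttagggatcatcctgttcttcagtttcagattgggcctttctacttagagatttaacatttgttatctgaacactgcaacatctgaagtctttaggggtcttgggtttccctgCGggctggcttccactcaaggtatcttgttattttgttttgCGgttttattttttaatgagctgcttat
Macrod2os2: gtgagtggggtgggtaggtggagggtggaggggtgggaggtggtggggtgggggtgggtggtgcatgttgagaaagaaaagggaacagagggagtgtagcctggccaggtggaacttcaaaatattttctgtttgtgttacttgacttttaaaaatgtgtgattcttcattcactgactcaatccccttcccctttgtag

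The silent-promoter peaks were open in few nuclei. The median region had a fragment in 0.945% of the 7197 nuclei (interquartile range 0.584 to 1.54%, range 0.125 to 14.4%), against 5.14% at 13551 promoter peaks of genes with more than 20 UMIs and 0.764% at 91489 other autosomal peaks. Only 37 of the 1525 regions (2.43%) lay above the median of expressed promoters, while 926 (60.7%) lay above the median of the other peaks, which are all autosomal peaks in neither promoter set. By the RNA count that chose the regions, the median share was 0.778% at genes with 0 UMIs, 0.889% at 1 to 5 UMIs and 1.10% at 6 to 20. It went on to 1.49% at 21 to 100 UMIs and 7.59% above 10000. There was no step at the limit itself. The 26 regions whose gene had exactly 20 UMIs had a median share of 0.841%, the 36 excluded peaks at 21 UMIs had 0.757% and the 26 at 22 UMIs had 0.910%. Just inside stood *Gm12830* (6.64%), *Scrt2* (4.71%), a neuronal zinc finger repressor, and *Ankrd34b* (1.71%). Just outside stood *Gm29927* (4.22%), *Gm27252* (3.20%) and *S100a4* (2.88%), which encodes a calcium-binding protein.

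**Figure D1:**
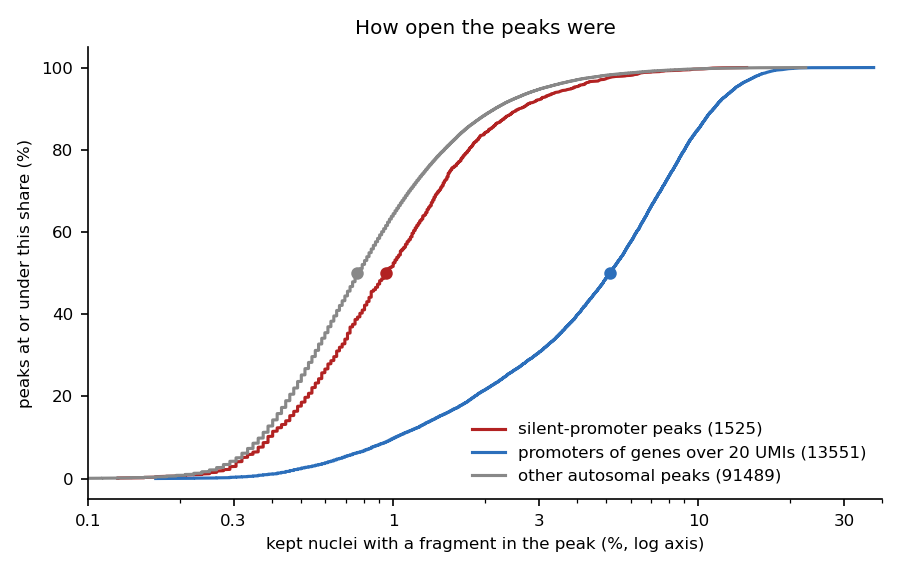
Cumulative share of peaks (y axis, %) at or under a given share of the 7197 kept nuclei with at least 1 fragment in the peak (x axis, %, log scale), for silent-promoter peaks, promoters of genes with more than 20 UMIs and other autosomal peaks, with a dot at each median. The silent-promoter curve (median 0.945%) runs beside that of other peaks (0.764%) and far left of expressed promoters (5.14%).

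The 10 most open regions were open in 8.89 to 14.4% of nuclei, above the 5.14% median of expressed promoters. Of these, 7 lay beside another annotated start, within 5 kb, of a gene with more than 20 UMIs that the start column of the deposited feature list did not give. The region at *Gm28616*, open in 14.4% of nuclei, lay 164 bases from a start of *Auts2* (459070 UMIs). That at *4930483J18Rik* (12%) lay 112 bases from *Mrtfa*, that at *Gm42596* (11.2%) 121 bases from *Fbrsl1*, and that at *Gm13063* (10.4%) 87 bases from *Epb41*. *1700010B13Rik* (10.7%), *Gm10190* (9.50%) and *Rap1gapos* (9.39%) likewise lay 76, 89 and 100 bases from starts of *Slc45a4*, *Arhgef33* and *Rap1gap*. The other three had no such start: *Gm11205* (10.9%), *Ccno* (9.66%) and *Gm47061* (8.89%). *Ccno* encodes a cyclin-like protein of multiciliated cells. It had 9 UMIs, and its promoter was open in 9 of the 10 classes. *Ccno* stood at 64.7 FPM in progenitor-like, 64.2 in Leydig-like, 68.1 in surface epithelium-like, 56.1 in endothelial-like, 51.9 in contractile-like, 51.1 in mesonephric mesenchyme-like, 40.3 in germ-like, 38.7 in Sertoli-like and 25.2 in unnamed nuclei. No fragment fell in immune-like nuclei, where a count of 0 allows up to 33.8 FPM. Across all 1525 regions, 122 had such a hidden start, with a median share of 1.43%, and the 1403 without one had 0.917%. In all, 265 (17.4%) lay inside the body of an expressed gene.

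Within the 1 kb that the rule allows, the median distance from midpoint to start was 243 bases, 774 regions had their midpoint within 250 bases and 1059 peaks covered the start itself. The genes were protein coding at 696 regions, lincRNAs at 553 and antisense transcripts at 192.

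Having an open promoter while silent was frequent in families of developmental regulators and rare in large clustered families. Of 10656 autosomal genes with 20 or fewer UMIs, 1511 (14.2%) had a silent-promoter peak, which also needed no expressed start within 5 kb. Of 19708 genes with more UMIs, 14568 (73.9%) had any peak within 1 kb of the start, a looser measure. In the bHLH family, transcription factors that commit cells to muscle, neural and other fates, 20 of 33 silent genes had a silent-promoter peak (60.6%, interval 42.1 to 77.1). Homeobox genes, which set position along the body and organ identity, had 60 of 105 (57.1%, 47.1 to 66.8). Other developmental transcription factors had 26 of 54 (48.1%, 34.3 to 62.2). These 3 groups together gave 106 of 192 genes (55.2%) and 113 peaks.

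Receptor, signal and channel genes came next. Neurotransmitter and other receptors had a silent-promoter peak at 49 of 117 genes (41.9%), secreted signals at 32 of 92 (34.8%) and channels and transporters at 32 of 121 (26.4%). Predicted or clone-named genes, the largest group, stood near the share of all silent genes with 850 of 5623 (15.1%), and so did germline and spermatogenesis genes with 17 of 126 (13.5%). The shares were low for metabolic enzymes (22 of 300, 7.33%), for defence peptides and immune receptors (73 of 1016, 7.19%) and for keratin and skin barrier genes (8 of 148, 5.41%). Olfactory and other chemosensory receptors, the biggest mammalian gene family and one expressed in sensory neurons, had 19 of 1430 (1.33%, interval 0.802 to 2.07). The intervals of the 3 transcription factor groups lay wholly above, and those of these last 4 groups wholly below, the 14.2% of all silent genes.

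**Figure D2:**
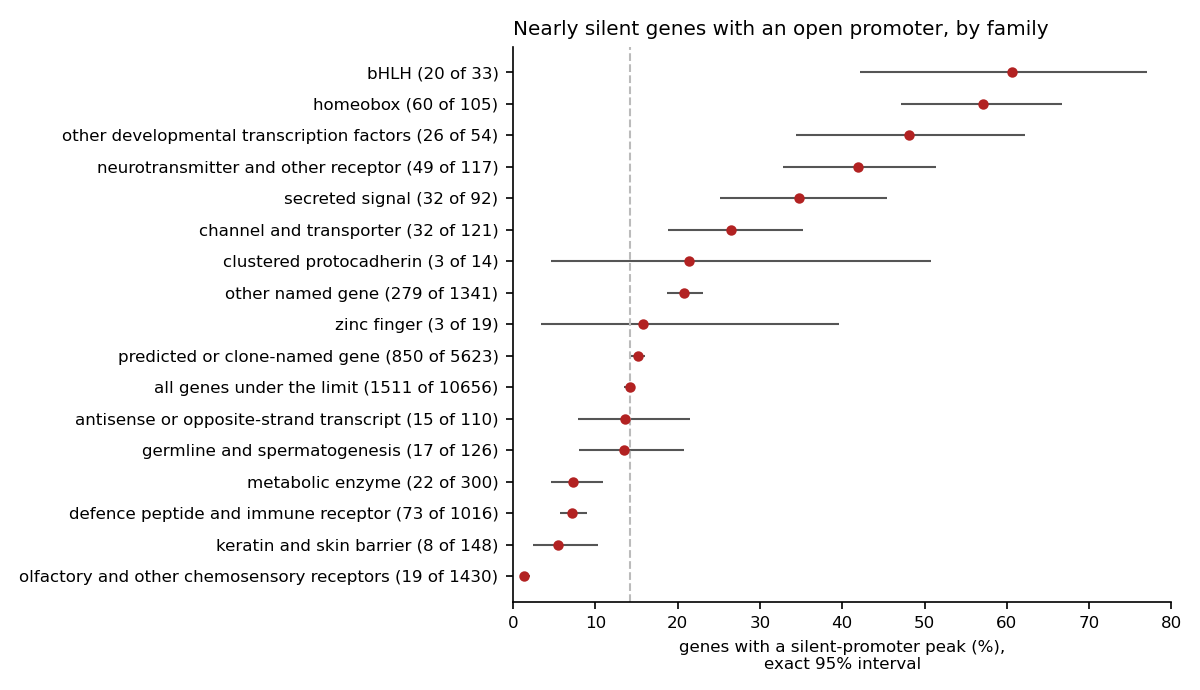
Percentage of genes with 20 or fewer UMIs that had a silent-promoter peak, by gene family, with exact 95% binomial intervals as bars and the share of all 10656 silent genes as a dashed line. bHLH and homeobox genes stand at 60.6 and 57.1%, chemosensory receptors at 1.33%.

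The transcription factors with a silent-promoter peak included regulators of many tissues. The bHLH members held the muscle determination genes *Myf5*, *Myod1* and *Myog*, the neural genes *Atoh1*, *Atoh7*, *Neurod1*, *Neurod4*, *Neurog1*, *Neurog3*, *Olig2* and *Olig3*, and the oocyte factor *Figla*. The homeobox members held 5 *Dlx* genes of the limb and forebrain, 4 *Irx* genes, *Gsx1* and *Gsx2* of the forebrain, and *Cdx1* and *Cdx2* of the gut. The group-13 *Hox* genes, which mark the tail end of the body axis and the genital tubercle, were all there: *Hoxa13* with 2 peaks and *Hoxb13*, *Hoxc13* and *Hoxd13* with 1 each, at 4, 0, 14 and 1 UMIs. Their promoters were open in 1.17 to 4.09% of nuclei.

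CpG content was higher at silent genes with a peak, although most of these had a ratio below 0.6. Over the 300 bases around each gene start, the ratio of observed to expected CpGs (1 where C and G fall independently) had a median of 0.357 at silent genes with a silent-promoter peak and 0.161 at silent genes with no peak within 1 kb. Of 896 silent genes with a ratio of 0.6 or more at the start, 635 (70.9%) had some peak within 1 kb. Of 9760 with a lower ratio, 1366 (14%) did. Among genes with more than 20 UMIs the same shares were 97 and 45%. The families differed on both sides of this limit. At starts below 0.6 the transcription factor families had a silent-promoter peak at 34 of 92 genes (37.0%, interval 27.1 to 47.6) against 1148 of 9760 silent genes (11.8%), and at starts of 0.6 or more at 72 of 100 against 363 of 896 (40.5%). Across the peaks themselves, the median ratio was 0.359 in silent-promoter peaks, 0.704 in those of the transcription factors, 0.721 in expressed promoters and 0.222 in other peaks.

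For the GC box and the TATA box the silent promoters stood between expressed promoters and the other autosomal peaks. The GC box bound by SP factors (GGGCGG, on either strand) was found in the central 300 bases of 32.6% of silent-promoter peaks, 67.0% of expressed promoters and 12.1% of other autosomal peaks. The transcription factor members had it at 71.7%. The TATA box (TATAAA) had the opposite order, 9.31% of silent-promoter peaks, 4.21% of expressed promoters and 14.3% of other peaks, and the transcription factor members had it at 2.65%. A match to these letters is not a bound site.

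Between cell classes, the germ-like nuclei stood out. A region was called higher in a class when its FPM was at least 2-fold those of all other kept nuclei with an interval above 1, and was evaluated when it had at least 20 fragments, which 1501 of the 1525 had. In germ-like nuclei 403 regions (26.8%, interval 24.6 to 29.2) were higher, where 11.9% of all autosomal peaks were. Expressed promoters stood at 12.1% and other peaks at 11.6%. At equal openness silent and expressed promoters were closer. This openness and the 20-fragment minimum count germ-like nuclei too, so the low bins hold peaks that passed only through them. They stood at 29.3 and 36.5% among peaks open in under 1% of nuclei, and at 26.9 and 30.1% for 1 to 2%. For 2 to 4% of nuclei they stood at 23.8 and 18.7%, and for 4% or more at 8.33 and 2.79%. Other peaks in the same bins stood at 14.7, 7.56, 4.57 and 2.59%. Summed over peaks, the germ-like ratio was 1.36 (1.35 to 1.38) for silent-promoter peaks, 1.20 (1.20 to 1.21) for expressed promoters and 0.839 (0.838 to 0.841) for other peaks. Scaled by all fragments these were 1.10, 0.97 and 0.676, so expressed promoters turned to below 1. In the other direction 198 regions (13.2%) were lower in germ-like nuclei, where 22.8% of all peaks were. Beside all peaks, progenitor-like nuclei had the reverse: 69 regions (4.6%) were higher against 9.86% of all peaks, and 284 (18.9%) were lower against 14.5%. The nuclei they were compared with include the germ-like ones, so this reverse is partly built in. Summed over silent-promoter peaks, progenitor-like nuclei had 10072 FPM, germ-like nuclei 14068 and Sertoli-like nuclei 10419. Of expressed promoters, 0.924% were higher and 6.29% lower in progenitor-like nuclei. Scaling by all fragments rather than those at peaks multiplied every germ-like ratio by 0.805 and gave 303 higher and 303 lower regions, a split of 50% in place of 67.1% higher among the called. Under that scaling 20.2% of silent-promoter peaks and 9.16% of all peaks were higher.

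In the remaining classes the silent promoters stood below or near the share of all peaks. Germ-like nuclei are again part of each comparison group. In Sertoli-like nuclei 101 regions (6.73%) were higher where 10.9% of all peaks were, in contractile-like nuclei 60 (4%) where 5.92% were, and in Leydig-like nuclei 60 (4%) where 7.14% were. In surface epithelium-like nuclei it was 104 (6.93%) against 6.32%, and in mesonephric mesenchyme-like nuclei 55 (3.66%) against 5.35%. Expressed promoters stood below silent promoters in all these classes. They were higher at 2.55% in Sertoli-like, 0.621% in contractile-like, 1.59% in Leydig-like, 2.18% in surface epithelium-like and 1.06% in mesonephric mesenchyme-like nuclei. The small classes gave 35 regions in endothelial-like nuclei (2.33% against 2.44%), 45 in unnamed nuclei (3% against 2.57%) and 43 in immune-like nuclei (2.86% against 2.39%). Expressed promoters stood there at 1.83, 1.92 and 6.46%, above silent promoters in immune-like nuclei only. Of the 1501 evaluated regions, 657 (43.8%) were called in no class, 727 (48.4%) in 1 class and 117 (7.79%) in 2 or more. All evaluated autosomal peaks had nearly the same split, 45, 46 and 9.08%.

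**Figure D3:**
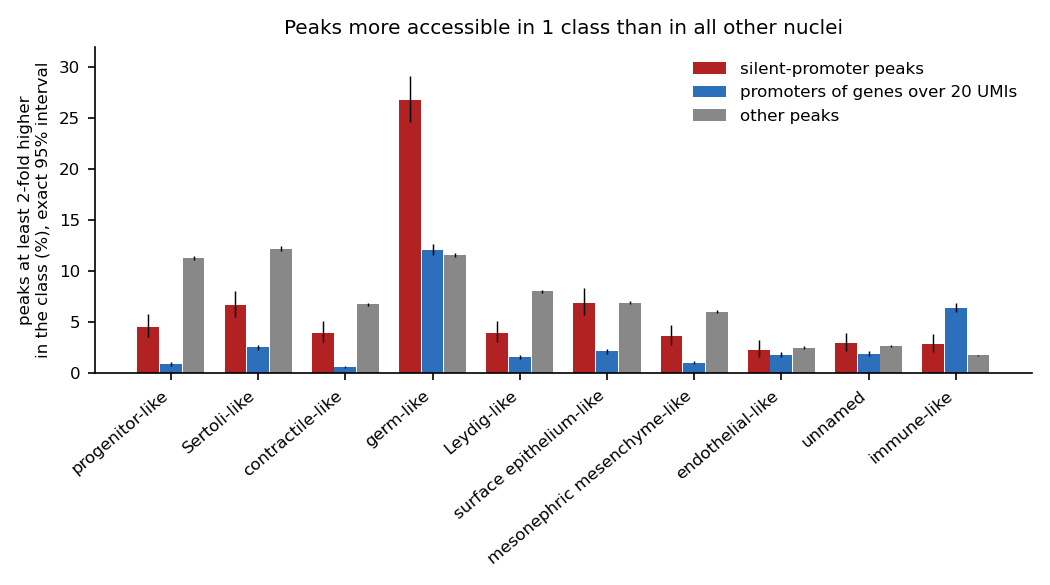
Percentage of peaks at least 2-fold higher in each class than in all other kept nuclei (bars, from 0), with exact 95% binomial intervals, for silent-promoter peaks, promoters of genes with more than 20 UMIs and other autosomal peaks. In germ-like nuclei the bars stand at 26.8, 12.1 and 11.6%.

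Among families of at least 14 regions, the germ-like ratio was highest at transcription factor genes. Of the 113 regions of the 3 families, 67 (59.3%) were called higher in germ-like nuclei and none lower. Of all silent-promoter peaks 26.8% were higher, and of all peaks 11.9%. At 102 of the 113 the ratio was above 1, a count not given for other peaks. The median ratio was 2.2, against 1.14 over all silent-promoter peaks and 1.19 at expressed promoters. Germ-like nuclei had the highest ratio of the 7 classes with at least 300 nuclei at 83, a count likewise not given for other peaks. Neither count is read as a trait of these families. By family the calls were 42 of 64 homeobox, 12 of 21 bHLH and 13 of 28 other developmental regions. Of the 113 regions, 83 (73.5%) had a CpG ratio of 0.6 or more. All silent-promoter peaks, these included, were called higher at 44.1% for ratios of 0.6 to 0.8 and 58.4% for 0.8 or more. Summed over regions, the germ-like ratio was 2.58 (2.34 to 2.85) for bHLH, 2.50 (2.39 to 2.63) for homeobox and 2.05 (1.89 to 2.21) for the other developmental group. The bHLH sum and calls include *Figla*, with 56 of 71 fragments in germ-like nuclei. That region met the 20-fragment minimum only through the germ-like class, and a bHLH sum without it is not given. In every other class the sums of these families lay near or below 1. Each such sum is set against all other nuclei, germ-like ones included, so the high germ-like value lowers it. The homeobox sum was 0.75 in progenitor-like, 0.84 in Sertoli-like, 0.84 in contractile-like, 0.88 in Leydig-like, 0.85 in surface epithelium-like, 0.73 in mesonephric mesenchyme-like and 0.98 in endothelial-like nuclei. As FPM the homeobox sum was 1257 in germ-like, 492 in progenitor-like, 517 in Sertoli-like, 514 in contractile-like and 533 in Leydig-like nuclei. It was 511 in surface epithelium-like, 445 in mesonephric mesenchyme-like and 585 in endothelial-like nuclei. Ratios with germ-like nuclei left out of the comparison are not given. Promoters of expressed genes of the same 3 families were called higher in germ-like nuclei at 80 of 315 (25.4%) with a summed ratio of 1.21. They were open in a median of 3.56% of nuclei against 1.43%, so these shares do not compare like with like.

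The other families of at least 14 regions stood lower. The germ-like sum was 1.69 for channels and transporters, 1.68 for receptors, 1.55 for metabolic enzymes, 1.53 for secreted signals, 1.51 for other named genes, 1.25 for defence genes, 1.18 for germline genes and 1.13 for predicted genes, against 1.36 over all silent-promoter peaks. Antisense or opposite-strand transcripts were the only such family with a sum below 1, 0.862 (0.744 to 0.994). Scaled by all fragments, germline genes (0.953), predicted genes (0.913) and chemosensory receptors (0.846) also fell below 1. Chemosensory receptors, at 1.05, had an interval that spanned 1 (0.857 to 1.28) and a median ratio of 0.592. Small families could stand higher. Of the clustered protocadherins, adhesion proteins that give neurons a surface identity, 3 had a silent-promoter peak with a sum of 6.13 (4.74 to 7.91). They were *Pcdhac2* with 70 of 162 fragments in germ-like nuclei, *Pcdhac1* with 26 of 51 and *Pcdhb1* with 23 of 38, all called. *Pcdhb1* met the 20-fragment minimum only through the germ-like class. The only microRNA host region, at *Mir124a-1hg*, had a ratio of 4.34 and was likewise named after its values were seen.

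**Figure D4:**
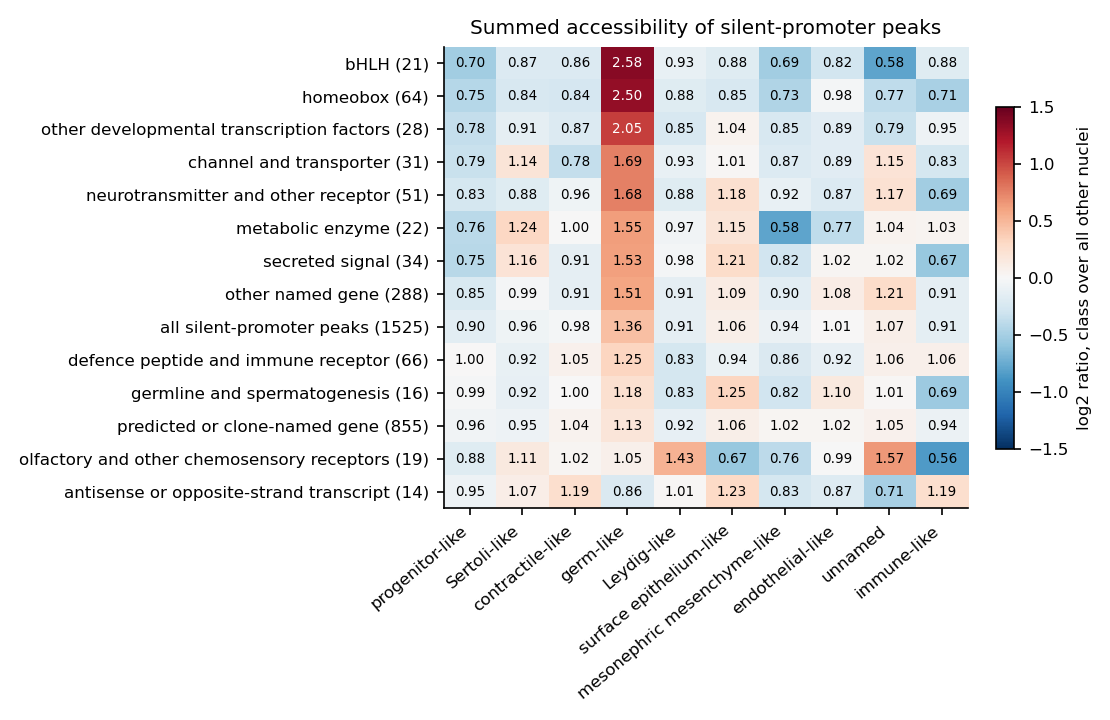
Accessibility of silent-promoter peaks summed by gene family (rows, number of peaks in brackets, families of at least 14) in each class (columns), as the ratio to all other kept nuclei, printed in each cell and coloured on a log2 scale. The germ-like column is highest for bHLH (2.58), homeobox (2.50) and other developmental transcription factors (2.05), and these rows are near or below 1 elsewhere. The other columns have germ-like nuclei in their comparison group, which lowers these rows there. The bHLH row includes *Figla*, with 56 of its 71 fragments in germ-like nuclei.

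Single transcription factor promoters differed in how far they followed the sums. *Nkx6-1*, which patterns the ventral neural tube and pancreas, was the most often open homeobox member. It stood at 52.3 FPM in germ-like, 48.9 in surface epithelium-like, 36.9 in Leydig-like, 31.5 in unnamed, 28.1 in endothelial-like, 27.0 in contractile-like, 26.7 in Sertoli-like, 23.8 in progenitor-like, 18 in mesonephric mesenchyme-like and 11.3 in immune-like nuclei, a germ-like ratio of 1.92 (interval 1.51 to 2.41) that fell short of the call. *Hoxc13* had 51.7 FPM in germ-like nuclei and between 8.83 (Leydig-like) and 25.2 (unnamed) in every other class, a ratio of 2.93 (2.28 to 3.75). The other group-13 peaks had ratios of 3.71 and 2 at *Hoxa13*, 2.21 at *Hoxb13* and 1.86 at *Hoxd13*, of which the higher of the *Hoxa13* pair and *Hoxb13* were called. *Atoh7*, needed for retinal ganglion cells, had 84 of its 257 fragments in germ-like nuclei, 45.8 FPM against 6.30 to 18 in the other classes (ratio 3.30, 2.51 to 4.31). *Mesp2*, a somite segmentation factor, had a ratio of 2.10. *Insm2* had 39.2 FPM in germ-like nuclei at its more open peak and 2.42 as ratio, while *Egr2*, an immediate early gene and hindbrain regulator, had 32.1 in germ-like and 33.4 in progenitor-like nuclei and was highest in immune-like nuclei (90.1, from 8 fragments, ratio 2.66).

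The most open silent promoters of receptor, channel and signal genes had germ-like ratios between 0.645 and 1.90. Called higher in germ-like nuclei were 20 of 50 receptor regions (40%), 12 of 31 channel regions (38.7%) and 12 of 34 signal regions (35.3%). Over all evaluated silent-promoter peaks the share was 26.8%, and over all evaluated peaks 11.9%. Among receptors, *Hrh3*, the histamine autoreceptor of neurons, was open in 6.45% of nuclei with a germ-like ratio of 1.45 (1.14 to 1.83), *Gpr62*, an orphan receptor, in 5.36% (1.54) and *Mrgpre*, a receptor of the sensory neuron family, in 4.09% (0.758). Among channels, *Cacng2*, which encodes stargazin of AMPA receptors, was open in 8.25% (1.59), its relative *Cacng3* in 4.95% (1.23) and the potassium channel *Kcnj11* in 2.97% (1.73). None of these named receptor and channel promoters reached the 2-fold call in germ-like nuclei. Their other calls were low ones, *Gpr62* in Sertoli-like (0.488) and *Mrgpre* in Leydig-like nuclei (0.461). Among secreted signals, the neurotrophic factor *Artn* was open in 2.33% (0.645), *Chrdl2* of the chordin group in 2.24% (1.38) and *Gdf7*, a BMP family ligand with no UMI at all, in 2.10% (1.90). Beside them stood *Fosb*, an immediate early gene, at 8.73% (1.14), and the homeobox gene *Vax2* of the ventral eye at 3.9% (1.20).

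The most open enzyme, immune, keratin and chemosensory promoters went in several directions. In germ-like nuclei 8 of 22 enzyme regions (36.4%) were called higher and 1 lower. The calls were 13 higher and 11 lower of 61 defence regions, 0 and 1 of 7 keratin regions, and 4 and 4 of 18 chemosensory regions. Of all evaluated silent-promoter peaks 26.8% were higher and 13.2% lower, and of all evaluated peaks 11.9 and 22.8%. The thymic protease *Prss16* was higher in germ-like nuclei (2.49, interval 1.81 to 3.39) and the pancreatic lipase relative *Pnliprp1* lower (0.289, 0.104 to 0.645), while *Scgb1c1* stood at 0.945. *Traj51*, a joining segment of the T cell receptor with no UMI, was higher in progenitor-like nuclei (2.66, 1.98 to 3.59) and lower in germ-like ones (0.256). The cytokine *Il11* and the chemokine *Cxcl1* both had a germ-like ratio of 1.60 and no high call. Of the hair keratins, *Krt88* was higher in Sertoli-like (2.28) and lower in germ-like nuclei (0.168), and *Krt87* (1.63) and *Krt86* (0.694) had germ-like intervals that spanned 1. The olfactory receptors split too. *Olfr94* was just above the limit in germ-like nuclei (2.01, 1.39 to 2.85), *Olfr145* was higher in Leydig-like (2.62) and Sertoli-like nuclei (2.12), and *Olfr433* was higher in contractile-like nuclei (2.04). The zinc finger gene *Zfp708*, with 1 UMI, was open in 6.14% of nuclei with a germ-like ratio of 1.48, and *Zfp648* was higher in surface epithelium-like nuclei (4.75, 2.57 to 8.28), whereas *Zfp488* had no high call.

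The germline and spermatogenesis list was read from gene symbols, and each gene entered a single family. *Figla* and *Nobox* were counted with the transcription factors and *Hist1h2aa* with the histones, so the list does not hold all germline genes. Of its 16 regions, 3 (18.8%) were called higher in germ-like nuclei, beside 26.8% of all silent-promoter peaks and 11.9% of all peaks, and 1 lower. The 3 most open were not among the called. *Ccdc184* (3.06% of nuclei), *Ccdc110* (2.74%) and *Spata20* (2.70%), had germ-like ratios of 1.37, 0.776 and 1.20, each with an interval that spanned 1. The opposite-strand transcripts *Snhg7os* (4.97%) and *Ube2uos* (1.29%) stood at 0.810 and 0.463.

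The regions with the largest germ-like ratios had fewer than 20 fragments in all other nuclei, so they met the 20-fragment minimum only through the germ-like class. This holds for 79 of the 403 called regions (19.6%) and for 31.1% of all peaks called. Among regions with at least 20 fragments outside germ-like nuclei, 324 of 1399 (23.2%) were higher, where 8.66% of all such peaks were. *Gm13661* had 58 of its 70 fragments in germ-like nuclei (ratio 32.9, interval 17.5 to 67.2). *Figla*, the bHLH factor that starts the oocyte programme of zona pellucida genes, had 56 of 71 (25.4, 14.2 to 48.3), with 6 of the other fragments in Sertoli-like, 5 in progenitor-like and 2 in surface epithelium-like nuclei and none in any other class of at least 50 nuclei. Of its 11 UMIs in kept nuclei, 9 were in germ-like ones, a count that belongs to the RNA used to choose the region. *Gm21863* had 77 of 96 (27.5, 16.5 to 48.2), but 57.4% of the 31-base words of its peak occur elsewhere on the chromosomes, so its fragments are uncertain. Chosen after its values were seen, the only histone region, at *Hist1h2aa*, a testis-type H2A gene, had 57 of 73 (24.2, 13.7 to 45.2).

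The germ-like regions were richer in CpG than the rest. Their median CpG ratio was 0.512 against 0.309 in regions not called higher in germ-like nuclei, and 40.7% against 15.6% reached 0.6. Across bins of the CpG ratio (under 0.2, 0.2 to 0.4, 0.4 to 0.6, 0.6 to 0.8, 0.8 or more) the share of silent-promoter peaks called higher in germ-like nuclei was 7.38, 20.8, 32.5, 44.1 and 58.4%. The same bins of expressed promoters gave 10, 17.4, 19, 10.6 and 9.01%, and of other peaks 6.14, 13.2, 25, 21.5 and 25.5%. Over peaks with at least 20 fragments outside germ-like nuclei the shares were 3.66, 15.5, 26.6, 43.1 and 58% of silent promoters, 6.73, 12.8, 16.9, 10.2 and 8.97% of expressed promoters and 3.94, 9.15, 17.3, 18.6 and 24.5% of other peaks. The same peaks were also divided by the share of nuclei outside the germ-like class in which they were open. The fragments outside that class enter both this share and the germ-like ratio, so a fall of the calls with openness is partly built in and only peak sets in the same bin are compared. With a CpG ratio of 0.6 or more, the calls covered 69.4% of silent promoters, 68% of expressed promoters and 50.4% of other peaks open in under 1% of these nuclei. At 2 to 4% they covered 40.3, 23.1 and 18%. At 4% or more the calls covered 6.82, 1.99 and 2.66%. The intervals of silent and expressed promoters overlapped below 2% and at 4% or more, and did not at 2 to 4%. Below a CpG ratio of 0.6 the order turned: among peaks open in under 1% of these nuclei, 22.2% of silent and 31.7% of expressed promoters were higher, against 10.7% of other peaks. Silent and expressed promoters differed in openness, so their shares over all peaks do not compare like with like.

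**Figure D5:**
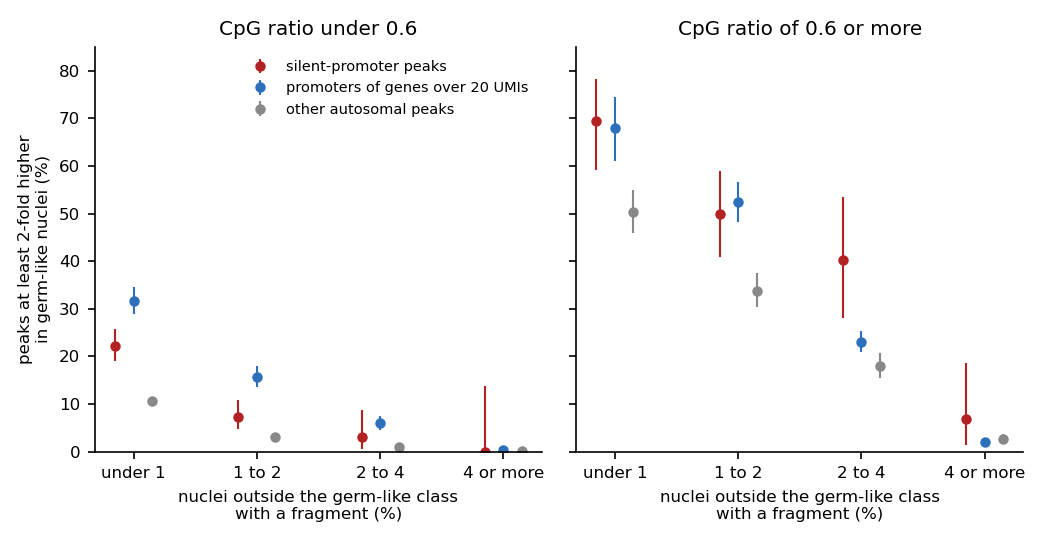
Percentage of peaks at least 2-fold higher in germ-like nuclei (y axis) by the share of nuclei outside the germ-like class in which the peak was open (x axis, %), for peaks with at least 20 fragments there and a CpG ratio under 0.6 (left) or of 0.6 or more (right), with exact 95% binomial intervals. At 2 to 4% of these nuclei and a CpG ratio of 0.6 or more, silent promoters stand at 40.3% and expressed promoters at 23.1%. In the other bins at that CpG ratio their intervals overlap.

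Sequence and fragment size differed along with it. The GC box was in 44.9% of the germ-like regions and 28.6% of the others, and the NRF1 half-site (TGCGCA) in 12.7 against 3.73%. The GATA site (AGATAA) was in 4.71 against 14.1%. All autosomal peaks higher in germ-like nuclei had these motifs at 28.8, 8.64 and 9.54% in that order, and a median CpG ratio of 0.323. Fragments shorter than 150 bases, which span no whole nucleosome, made up 58.8% in germ-like regions, 63.3% in all silent-promoter peaks and 68.9% in expressed promoters.

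The little RNA that these genes gave was unevenly spread over the classes. It is the RNA whose count chose the regions, and it was not left out when the classes were built. Its spread is therefore a description and no separate evidence for the calls. The 399 genes of the germ-like regions had 1806 UMIs in kept nuclei, of which 847 (46.9%) lay in germ-like nuclei. For the genes of the other silent-promoter peaks it was 26%, and for all genes 19.4%. Still, 153 of the 399 genes had no UMI in any germ-like nucleus. Over all member genes the level was 137 CPM in germ-like, 58.9 in progenitor-like, 68.6 in Sertoli-like, 62.7 in contractile-like, 63.1 in Leydig-like, 82.5 in mesonephric mesenchyme-like, 87.6 in surface epithelium-like, 105 in endothelial-like, 132 in unnamed and 212 in immune-like nuclei, the last from 104 UMIs. Germ-like nuclei were thus near the unnamed ones and below the immune-like ones. RNA of other cell types was seen in germ-like nuclei: *Cyp11a1*, the Leydig cell enzyme that starts steroid synthesis, stood at 45 CPM there against 1165 in Leydig-like nuclei. The part of free RNA and doublets in these low counts was not tested.

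Regions called higher in the largest somatic classes were poor in CpG, and so were all peaks called higher there. Their median CpG ratio was 0.225 in Sertoli-like, 0.214 in progenitor-like, 0.228 in Leydig-like and 0.2 in contractile-like nuclei, where all peaks called higher had 0.194, 0.185, 0.195 and 0.202. Only 1 of 101 Sertoli-like and none of 69 progenitor-like regions reached 0.6, where 0.792 and 0.165% of all peaks called higher in those classes did. Immune-like and endothelial-like nuclei were less CpG poor: regions called higher there had medians of 0.265 and 0.322, and 11.6 and 14.3% reached 0.6, where 33.1 and 7.78% of all peaks called higher in those classes did. Surface epithelium-like and mesonephric mesenchyme-like regions had medians of 0.289 and 0.255, where all peaks called higher had 0.22 and 0.213. Of these regions 8.65 and 3.64% reached 0.6, where 2.26 and 1.13% of all peaks called higher did. The GATA site was in 30.7% of the Sertoli-like regions, where it was in 25% of all peaks higher in Sertoli-like nuclei. Among somatic classes of at least 300 nuclei, contractile-like (21.7 against 18.8%) and mesonephric mesenchyme-like regions (20 against 18.3%) also stood above such peaks. Progenitor-like (17.4 against 27.3%), Leydig-like (18.3 against 26%) and surface epithelium-like regions (15.4 against 21.1%) stood below. The SOX site (ACAAAG) was rarer at Sertoli-like regions, 17.8%, than at all peaks higher in that class, 32.6%. The half-site bound by NR5A1 (AAGGTCA), the steroidogenic factor of the gonad, was in 14.9% of Sertoli-like, 16.7% of Leydig-like and 14.5% of progenitor-like regions and in 3.72% of germ-like ones. All peaks higher in those classes had it at 24.2, 25.9, 15.6 and 5.97%.

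In Sertoli-like nuclei, which nurse the germ cells, the largest ratios were at *Gm45054* (10.6, interval 5.81 to 19.9, with 18 fragments outside the class, under the 20-fragment minimum), *Aqp12* (8.68, 4.79 to 16.1), a pancreas aquaporin, and *Eppin* (7.47, 4.92 to 11.4), a protease inhibitor of the epididymis and sperm surface. *Eppin* had 56 of its fragments in Sertoli-like nuclei (25.8 FPM), with 8.83 FPM in Leydig-like and 6.30 or less in every other class. In Leydig-like nuclei *Gsx2*, a forebrain homeobox gene, had 38 fragments (30.5 FPM) and between 0 and 8.72 FPM in every other class (ratio 5.86, interval 3.83 to 8.85). *Gm50269* (5.34) and the olfactory receptor *Olfr12* (4.11) followed. *Gsx2* thus stood apart from its family, whose Leydig-like sum was 0.88 with germ-like nuclei in the comparison group.

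Predicted genes made up most of the leading regions of the other interstitial and epithelial classes. In progenitor-like nuclei these were *Gm44725* (4.53, interval 2.75 to 7.68), *Gm28914* (3.61) and *Gm4861* (3.48). In contractile-like nuclei *Gm30806* (4.61, 2.51 to 8.33), *Gm43086* (3.95) and *9530036M11Rik* (3.59) led, and the last was also high in mesonephric mesenchyme-like nuclei (6.31), where *Gm31378* (5.13) and *Gm30695* (4.68) came next. In surface epithelium-like nuclei *Macrod2os2* (9.87, 5.56 to 17), an opposite-strand transcript that shares exon bases with an expressed gene, *Gm26717* (7.11) and *Gm32389* (6.73) led. Ratios in the small classes rested on few fragments: in endothelial-like nuclei *Gm34804* (9.81, 4 to 21), *Gm49097* (8.17) and *Gm19590* (8.06), and in immune-like nuclei *Gm40304* (13.4, 4.18 to 32.9, from 5 fragments), *Gm45029* (12.8, from 4) and *Gm32568* (10.2, from 3). In the unnamed nuclei *Gm50016* (7.75), *Gm45159* and *Diras1* (7.59) had 4 fragments each.

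Some silent-promoter peaks lay near each other, with 53 loci of at least 5 within 1 Mb, holding 305 regions. How many such loci other peaks or silent gene starts form was not computed. The densest was the major histocompatibility complex at chr17:35204657-36168166, with 11 regions including *Lta*, a tumour necrosis factor relative, and the class I genes *H2-Q1* and *H2-Q2*. Of these 11, 6 were higher in germ-like nuclei, where 26.8% of all silent-promoter peaks and 11.9% of all peaks were, with ratios of 4.02 at *Lta*, 2.41 at *H2-Q1* and 5.32 at *H2-Q2*. The T cell receptor alpha locus had 8 regions at chr14:53041837-53977758, 2 of them higher in germ-like nuclei, and the interval chr14:54136283-54940059 had 8, of which 4 were T cell receptor joining segments and none was higher. The immunoglobulin kappa locus with neighbouring *Foxi3* had 8 at chr6:70010142-70957011, of which 1 was higher. An interval with the signalling genes *Wnt10a* and *Ihh* and the transcription factor gene *Fev* had 8 at chr1:74791329-75277900, of which 2 were higher. At chr9:2999770-3036446, 5 regions of predicted genes had 72.3 to 94.0% of their 31-base words elsewhere in the genome, so these fragments are uncertain. Over the whole set 25 regions had at least 50% of their words elsewhere, and without them 392 of 1478 (26.5%) were higher in germ-like nuclei.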

How the data were processed

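Frozen whole testes were processed with the 10x multiome kit, which read RNA and open chromatin of each nucleus into 1 library per assay. The authors ran Cell Ranger ARC 2.0.1 on mm10, which called peaks over all nuclei together. The deposited matrix holds raw counts of UMIs per gene and of transposase cuts per peak. The deposited fragment list gives the coordinates of 58448458 fragments, each with a count of read pairs, which was not used. Whole-library totals were 122049390 UMIs.

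From these, nuclei were kept with at least 500 genes, 250 to 25000 fragments at peaks, at least 20% of fragments at peaks, at most 10% mitochondrial and 0.5% haemoglobin UMIs, and the nuclei with the highest simulated doublet scores were removed at 0.8% per 1000 barcodes. Classes came from RNA alone (scanpy 1.11.5, 2000 variable genes, 30 components, 20 neighbours, Leiden resolution 0.3; Python 3.11.15, NumPy 2.4.6, SciPy 1.17.1, leidenalg 0.10.2), and clusters were named from marker genes. Fragments with at least 1 cut in a peak were added up for each class and expressed per 1000000 such fragments. Intervals of ratios are exact conditional binomial and those of shares exact Clopper-Pearson, at 95%; they cover counting error only, and nuclei are not replicates. The calling code was tested on simulated counts with known folds.

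The gene start was column 5 of the feature list, which is the leftmost annotated transcript start; other starts came from GENCODE vM21 and bases from the RefSeq GRCm38.p6 genome, whose lengths match the build of the files. Families were read from gene symbols by 17 patterns, which were corrected from symbols alone after the members had been listed. Motifs (14) were searched on both strands, overlaps with other motifs allowed. The members and lists were chosen with earlier results of these data known. Genes were named by rule: the 10 highest shares of nuclei, the 3 highest shares of each family of at least 3 members (2 for predicted and other genes), the 3 called members with the largest ratio and at least 50 fragments in each class, up to 3 members at 20 UMIs and 3 excluded peaks at 21 or 22, and loci of at least 5 members within 1 Mb. Transcription factors listed without values, *Hist1h2aa* and *Mir124a-1hg* fall outside it, and 1 gene that the rule names is not reported here. Alternatives varied the UMI limit, distances, start column, scaling, unit, fragment minimum, fold, doublet removal and cluster resolution. Chosen after seeing the data were the annotated-start limit, the automatic doublet threshold, resolution 0.6 and both start columns for family ratios, leaving out repeated members, and a minimum of 20 fragments and openness taken outside germ-like nuclei.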

Additional observations from a re-analysis of the deposited data

Results flagged for a closer look

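The regions above are autosomal, and the X chromosome was outside the comparison. On it 28 peaks met the same conditions, with a median share of 0.639% of nuclei. Of the 26 with at least 20 fragments, 9 (34.6%) were at least 2-fold higher in germ-like nuclei, where 9.13% of the 2465 X peaks with that many fragments were. Their summed ratio was 1.83 (95% counting interval 1.62 to 2.07), against 0.962 over all X peaks. They are flagged because these peaks enter no comparison of the report, and no explanation was tested.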

How the results depend on the processing

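A limit of 5 UMIs gave 784 member peaks in place of 1525, and a fold of 3 gave 252 regions higher in germ-like nuclei in place of 403. These 252 were 16.8% of the evaluated regions, where 7.88% of all peaks were higher at that fold. Regions lower in germ-like nuclei, 198 as reported, numbered 303 scaled by all fragments and 112 at resolution 0.6. The germ-like ratio of the 3 transcription factor families, 2.39 as reported, was 1.92 scaled by all fragments, 2.05 without doublet removal, 1.98 at resolution 0.6 and 2.67 with nuclei over the automatic doublet threshold left out. When scaled by all fragments it turned from 1.13 to 0.913 for predicted genes, from 1.18 to 0.953 for germline genes, from 1.05 to 0.846 for chemosensory receptors (whose interval spanned 1 as reported) and from 1.20 to 0.97 for expressed promoters, by construction of the scaling, which multiplies every germ-like ratio by 0.805 (a log2 shift of -0.31) and every progenitor-like ratio by 1.13. Chemosensory genes with a silent-promoter peak went from 1.33 to 2.24% with both start columns. Counts of regions higher in other classes moved by over 1.5 times as follows. The share of all peaks under these settings is not given for these classes, so a move may be one of all peaks. All-fragment scaling gave 104 in progenitor-like nuclei in place of 69. Transposase cuts, which count 2 ends of a fragment as separate, gave 92 in Leydig-like (60 as reported), 109 in mesonephric mesenchyme-like (55), 115 in endothelial-like (35), 122 in unnamed (45) and 86 in immune-like nuclei (43). A minimum of 50 fragments gave 49 in Sertoli-like (101), 35 in Leydig-like, 23 in endothelial-like, 28 in unnamed and 27 in immune-like nuclei. It left 1039 regions, of which these were 4.72, 3.37, 2.21, 2.69 and 2.6%. The shares as reported were 6.73, 4, 2.33, 3 and 2.86%. A fold of 3 gave 13 in progenitor-like, 56 in Sertoli-like, 13 in contractile-like (60), 31 in Leydig-like, 57 in surface epithelium-like (104) and 31 in mesonephric mesenchyme-like nuclei. In all, 32 values that answer a comparison and 106 others stayed within their limits and 44 others moved; except where the setting itself sets the change, the cause was not tested. No paired analysis was possible because there is 1 library for each assay and no test. Depth limits the small classes: the 67 immune-like nuclei placed no or few fragments in most regions, with 8 at *Egr2*. A region open in few nuclei cannot be told from one that is closed in such a class. Removing doublets by rank may leave some, and class names rest on RNA markers. Fewer fragments at a region can mean fewer nuclei with it open or less signal in each, which were not separated.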
